A study of Homo sapiens with 36 samples.

Results

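The 77 genes described here encode the proteins of the cytosolic ribosome. They were taken by symbol as every gene named RPL or RPS with a number and an optional A or X, together with RPLP0, RPLP1, RPLP2 and RPSA, and they are 77 of the 37549 gene symbols counted. Processed pseudogenes and Y-linked copies were not included. Of the 77 genes, 46 encode proteins of the large subunit and 31 proteins of the small subunit. All 77 passed the filter on low counts in each line, and the lowest count of any of them in a library was 1526. The measurements were gene counts from RNA sequencing of ribosomal RNA-depleted total RNA of 3 B-cell lines, MEC1, JVM2 and EHEB, in 36 libraries. MEC1 carries mutated p53 and was exposed for 48 h, JVM2 has wild-type p53 and was exposed for 72 h, and EHEB also has wild-type p53 and was exposed for 96 h, so cell line, p53 status and exposure time cannot be told apart. Each line received dimethyl sulphoxide (DMSO, the vehicle), 50 µM of the purine analogue fludarabine, 5 µM of ibrutinib, an inhibitor of Bruton tyrosine kinase, or 10 µM of idelalisib, an inhibitor of phosphoinositide 3-kinase delta, with 3 libraries in each of the 12 groups. DMSO and fludarabine libraries carry 1 run of library numbers in each line and the kinase inhibitor libraries another run that holds no DMSO library, so a difference between these runs and an effect of ibrutinib or idelalisib against DMSO cannot be told apart.

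Each cytosolic ribosome holds 1 copy of nearly every one of these proteins, arranged around the ribosomal RNAs, and dividing cells spend a large part of their messenger RNA on them. In human cells their genes share an unusual promoter in which transcription starts at a cytosine inside a run of pyrimidines, so that the transcript opens with a 5′ terminal oligopyrimidine (5′TOP) tract. That tract places the transcripts under translational control of the mTOR pathway, which signals downstream of phosphoinositide 3-kinase. Surplus RPL5 and RPL11, bound to 5S ribosomal RNA, can hold the p53 ligase MDM2 when assembly of ribosomes fails.

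The promoter bases around the annotated start site are printed for 9 of the genes whose values are given later, 8 with the pyrimidine motif and RPS15 without it. They are RefSeq sequences of the assembly GRCh38.p14, in which 62 of the 77 genes were matched, and each runs 5′ to 3′ on the strand of the gene from 20 bases before the start to the 10th base of the transcript. Capitals mark the motif found.
RPLP2, chr11:809947-809976, plus strand: gcctcttgcgtcggcgccttCCTTTTCctc
RPS3, chr11:75399498-75399527, plus strand: cttccgcccgcgagccacttCCTTTCCttt
RPS6, chr9:19380227-19380256, minus strand: gcgctaagcggaagttggcccTCTTTTCcg
RPS19, chr19:41860235-41860264, plus strand: gcccgggaaaccccgtcgttcCCTTTCCcc
RPL13A, chr19:49487588-49487617, plus strand: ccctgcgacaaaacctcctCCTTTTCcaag
RPSA, chr3:39406700-39406729, plus strand: cgtcatttcctgccgcctgTCTTTTCcgtg
RPS21, chr20:62387083-62387112, plus strand: tgccgggtgactagctgcttCCTTTCTctc
RPL29, chr3:51995886-51995915, minus strand: tgctgcaccgcagccCCTTTCTcttccggt
RPS15, chr19:1438376-1438405, plus strand: ataactgcgcaggcgcggaccaaagcgatc
The motif searched was CTTT with a C or T before it and 2 letters after it that are each C or T, which makes 8 different heptamers, within 25 bases either side of the annotated start. On the strand of the gene, 38 of the 62 matched promoters (61.3%) held a match, against 1353 of the 27305 RefSeq promoters (4.96%). On the opposite strand the shares were 3.23% and 3.77%. The first transcribed base was a cytosine in 46 of the 62 promoters (74.2%) and in 15.0% of all promoters. These matches describe the letters of the reference only.

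Library totals lay between 26590705 and 53538925 counts, with a median of 42114145.5, and the spread in every pair of replicates was above counting error (chi-square per degree of freedom 24.9 to 48.9 over 36 pairs). Expression is given as counts per 1000000 (CPM) scaled by the trimmed mean of M-values (TMM), and a gene is said to be higher, lower, risen or fallen only where the Benjamini-Hochberg adjusted p of edgeR's quasi-likelihood test over all genes was under 0.05. The labels do not say whether the 3 libraries of a group came from separate cultures. The authors state only in general that results other than their glucuronidation assays come from 3 or more independent experiments. The p values therefore measure the spread between these libraries, which may be technical. Libraries of a group are called the first, the second and the third in the order in which their values are given. Marker sums are CPM of the library total, without TMM. Summed over 6 genes, the B-cell markers reached 1818 to 6379 CPM per library. Markers of T cells summed to 0 to 16.7 CPM and those of erythroid cells to 0 to 0.409 CPM. Myeloid markers, 5 genes, summed to 6.56 to 63.7 CPM, mostly from ITGAM, with MPO and LYZ at most 0.164 and 0.201 CPM.

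With DMSO the ribosomal protein genes were among the well expressed genes of each line, at a median of 641 CPM in MEC1 (range 159 to 2597), 703 CPM in JVM2 (125 to 2746) and 599 CPM in EHEB (105 to 2016), where CPM is scaled over the 9 DMSO libraries. Per kilobase of coding sequence, the highest mean level over the lines was that of RPL41, at 5262 CPM per kb, which encodes the shortest protein of the ribosome from 75 coding bases. RPL39, whose protein lines the exit tunnel, followed at 4747 CPM per kb and RPS19 at 3375 CPM per kb. At the other end stood RPL27 at 532, RPS15 at 333 and RPL17 at 262 CPM per kb. Coding length leaves out the untranslated parts of the transcripts.

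Between the DMSO-treated lines the genes differed in both directions. Against JVM2, EHEB was lower at 54 of the 77 genes and higher at 1, where 29.6% of all genes tested were lower and 29.9% higher. MEC1 was lower than JVM2 at 39 and higher at 5 (33.7% of all genes lower, 30.1% higher). Against EHEB, MEC1 was higher at 31 and lower at 13 of the genes (31.6% of all genes higher, 35.8% lower). Scaling by library size alone, which raised the median of all genes by 0.12 on the log2 scale, turned MEC1 against JVM2 into 14 higher and 24 lower, and MEC1 against EHEB, where all genes rose by 0.114, into 42 higher and 9 lower. RPS6, the target of the S6 kinases, stood at 826 ± 37.5 CPM in MEC1 and 1764 ± 64.0 CPM in JVM2 (SD, n = 3 each), a log2 difference of −1.09 (SE 0.0478, adjusted p = 9.79e-08). RPS12 was 205 ± 6.81 CPM in MEC1 and 529 ± 18.8 CPM in JVM2, or −1.37 (SE 0.0462, adjusted p = 2.2e-08). RPS2, which sits near the messenger RNA entry site, went the other way between MEC1 and EHEB, at 2597 ± 121 CPM in MEC1 and 1055 ± 231 CPM in EHEB, or 2.46-fold higher (adjusted p = 8.77e-05). RPS26 was 167 ± 15.7 CPM in MEC1 and 453 ± 159 CPM in JVM2, a difference of −1.44 (SE 0.311, adjusted p = 0.00304), although its pseudogenes carried 42.2% as many counts as the gene itself and part of its reads may have been divided among them.

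As a share of all counts, the 77 genes together took 6.52%, 6.07% and 6.56% of the DMSO libraries of MEC1 and 3.93%, 3.91% and 3.92% of the fludarabine libraries. In the same line they took 6.70%, 7.07% and 6.74% with ibrutinib and 9.08%, 8.31% and 8.94% with idelalisib. Every fludarabine library of MEC1 was therefore below, and every idelalisib library above, each DMSO library. In JVM2 the share was 6.65%, 6.80% and 6.95% with DMSO, 4.79%, 4.76% and 4.17% with fludarabine, 6.04%, 5.95% and 5.61% with ibrutinib and 5.28%, 5.12% and 5.01% with idelalisib. In EHEB it was 5.29%, 5.25% and 5.30% with DMSO, 4.46%, 4.51% and 4.39% with fludarabine, 4.66%, 4.57% and 4.82% with ibrutinib and 4.29%, 4.34% and 4.12% with idelalisib. In JVM2 and EHEB every drug-treated library lay below each DMSO library of its line. These are shares of a total, so they also move with other RNAs, and in bulk RNA fewer cells of a kind and less RNA per cell cannot be told apart. Small cytoplasmic and nuclear RNA genes such as 7SL and 7SK, for example, took 8.51% to 10.7% of counts in DMSO-treated MEC1 libraries and 17.1% to 19.4% with idelalisib, and their part in the result was not tested. No test was made on the shares, since 3 libraries against 3 cannot give an exact permutation p under 0.1.

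**Figure D1:**
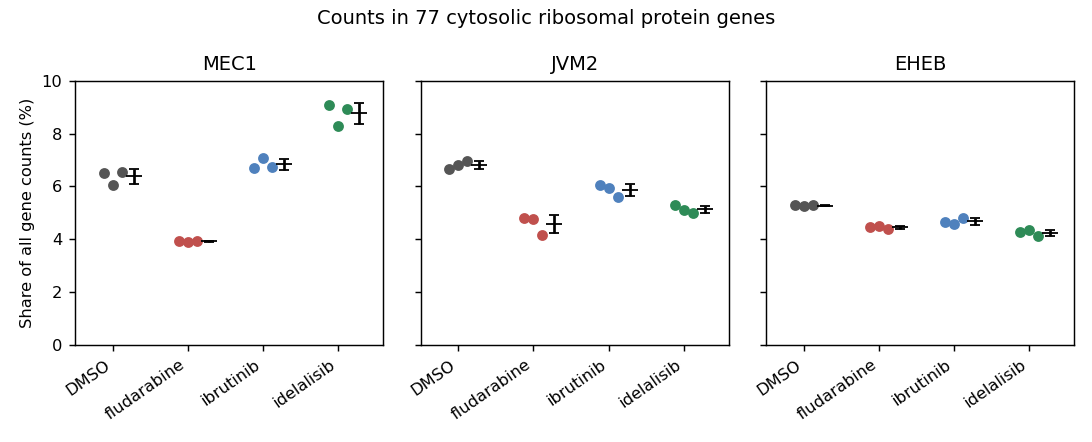
Share of all counts (%, vertical axis) taken by the 77 ribosomal protein genes in each of the 36 libraries, in 1 panel per line, with the mean ± SD of the 3 libraries beside the points. In MEC1 the mean share was 6.38% with DMSO, 3.92% with fludarabine and 8.77% with idelalisib, while in JVM2 and EHEB all drug groups lay below DMSO.

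Fludarabine lowered nearly the whole set in MEC1 and JVM2, and most of it in EHEB. In MEC1 74 of the 77 genes fell and 0 rose, with a median log2 change of −0.92, where 22.7% of all genes tested were lower, 21.2% were higher and the median of all genes was 0.06. In JVM2 73 fell and 0 rose, with a median of −0.76 (23.3% of all genes lower, 23.9% higher). In EHEB 62 fell and 2 rose, with a median of −0.40 (19.2% of all genes lower, 18.4% higher). Scaling by library size alone raised the median of all genes in MEC1 by 0.249, in JVM2 by 0.199 and in EHEB by 0.107, and left 71, 69 and 50 of the genes lower and 1, 0 and 2 higher. In MEC1 the median was −0.92 over the 46 large and −0.92 over the 31 small subunit genes, a difference that was not tested. Other measures moved with fludarabine too. The summed myeloid markers were at 6.56 to 8.23 CPM with DMSO and 28.5 to 32.6 CPM with fludarabine in MEC1, at 9.94 to 13.02 and 41.6 to 44.2 CPM in JVM2 and at 19.0 to 23.2 and 55.1 to 63.7 CPM in EHEB. The summed T-cell markers were at 0.901 to 1.42 CPM with DMSO and 5.17 to 6.26 CPM with fludarabine in MEC1. CD79A, a chain of the B-cell receptor, went in JVM2 from 279, 299 and 302 to 83.8, 79.6 and 69.1 CPM, while the 6 B-cell markers together stood at 2479 to 2506 CPM and at 2162 to 2545 CPM. Mitochondrially encoded RNA took 0.396% to 0.608% of counts with DMSO and 0.792% to 1.06% with fludarabine in MEC1, 0.420% to 0.467% and 0.768% to 1.16% in JVM2, and 1.27% to 1.66% and 2.28% to 2.66% in EHEB. The part of these in the falls was not tested.

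**Figure D2:**
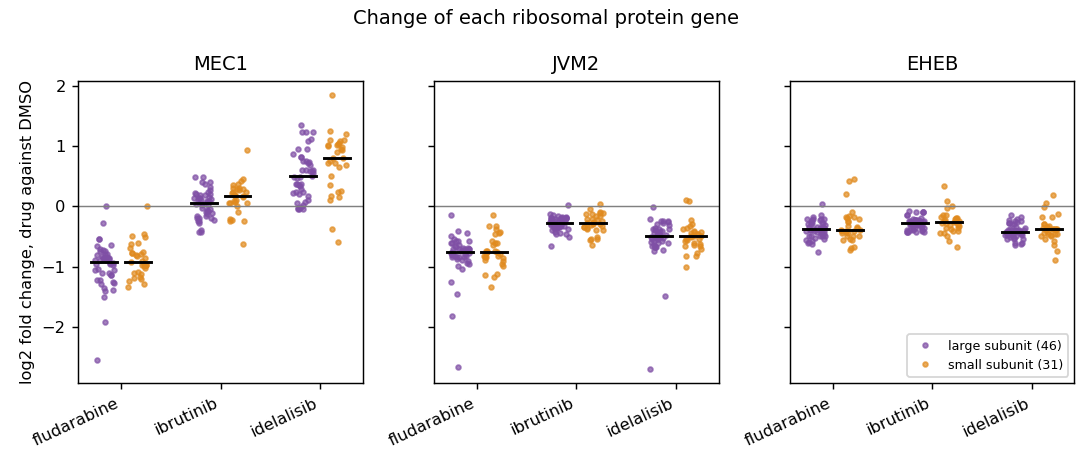
Log2 change against DMSO (vertical axis) of each of the 46 large and 31 small subunit genes, 1 point per gene, for each drug and line, with a black line at the median. With fludarabine the points of MEC1 and JVM2 lie almost wholly below 0, at medians of −0.92 and −0.76 over all 77 genes, and with idelalisib those of MEC1 lie mostly above 0, at a median of 0.60.

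RPS3, a small subunit protein whose promoter is printed earlier, was at 1716, 1705 and 2158 CPM with DMSO and 995, 907 and 1070.2 CPM with fludarabine in MEC1 (−0.91 (SE 0.0995, adjusted p = 2.57e-05)) and changed by −1.12 (adjusted p = 1.5e-05) in JVM2. RPL13A, of the large subunit, was at 2038, 1785 and 2331 CPM with DMSO and 960, 998 and 1025 CPM with fludarabine in MEC1 (−1.05 (SE 0.0961, adjusted p = 7.21e-06)). Neither gene overlapped between these groups of MEC1. RPL10, which joins the large subunit late in its assembly, was at 1577, 1436 and 1530.0 CPM in the DMSO libraries of MEC1 and at 550.4, 530.1 and 522 CPM with fludarabine. These groups lay far apart, at a log2 change of −1.50 (SE 0.0554, adjusted p = 4.13e-08). RPL34, another large subunit protein, went from 461, 402 and 426 to 161, 158 and 168 CPM, or −1.40 (SE 0.0872, adjusted p = 5.01e-07). In JVM2 RPL22, which is deleted in some lymphoid leukaemias, fell as well. It was at 308, 338 and 355 CPM with DMSO and at 119, 135.2 and 109 CPM with fludarabine, a change of −1.46 (SE 0.0891, adjusted p = 2.29e-07), and it also fell in MEC1 by 1.10 and in EHEB by 0.76 on the log2 scale. RPSA, the laminin receptor precursor that also belongs to the small subunit, went in JVM2 from 1640.0, 1730.2 and 2134 to 751, 765 and 660.1 CPM, a change of −1.34 (SE 0.105, adjusted p = 1.74e-06). The groups did not overlap for any of these genes. After RPL22, RPS3A had the largest fall in EHEB, from 1380.5, 1511 and 1442 to 996, 753 and 874 CPM, a change of −0.72 (SE 0.0959, adjusted p = 0.000122).

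A few genes did not pass the test or rose. In MEC1 the 3 that did not pass were RPS27, with a log2 change of 0.01 (adjusted p = 0.959), RPL15, with 0.01 (0.982), and RPL41, with −0.54 (0.136). RPS27 did not pass in JVM2 (−0.33, adjusted p = 0.0776) or EHEB (−0.09, 0.329) either, although it did in JVM2 without the first DMSO library (−0.45, adjusted p = 0.017) and it passed with the opposite sign in MEC1 by library size alone (0.26, 0.0355). RPL15 fell in JVM2 by 1.25 on the log2 scale (adjusted p = 5.34e-05). RPS27 and RPL15 were singled out after their values were seen. RPS19, the gene most often mutated in Diamond-Blackfan anaemia, was at 1409.8, 1240.2 and 1538 CPM with DMSO and 694, 687 and 735 CPM with fludarabine in MEC1, a change of −0.99 (SE 0.1, adjusted p = 1.53e-05). In JVM2 it was at 1854, 1834 and 1806 and 1803, 1703 and 1485 CPM, a change of −0.14 (SE 0.067, adjusted p = 0.114) that did not pass, although it did without the first fludarabine library (−0.20, 0.0326). In EHEB it was at 1312, 1453 and 1437 CPM with DMSO and at 1676, 1608 and 1576 CPM with fludarabine, where all treated libraries were the higher ones, at 0.21 (SE 0.0666, adjusted p = 0.0282). That call was lost without the first DMSO library (0.16, adjusted p = 0.126) or the third (0.22, 0.0515) and without the first fludarabine library (0.18, 0.0989), the second (0.21, 0.0688) or the third (0.22, 0.0545), without the low-count filter (0.17, 0.0977) and in the joint fit (0.20, 0.0676). RPS2 was the other gene that rose in EHEB, from 809, 1223 and 1226 to 1537, 1437 and 1388 CPM (0.42 (SE 0.141, adjusted p = 0.0356)). Its call was lost without the first DMSO library (0.24, adjusted p = 0.0685) or the first fludarabine library (0.38, 0.104), the second (0.42, 0.0762) or the third (0.44, 0.0625), and so it was without the filter (0.38, 0.0608), in a joint fit of 36 libraries (0.41, 0.057), in a fit of the 6 libraries compared (0.42, 0.0759) and with the counts of its pseudogenes added to it (0.14, 0.265).

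**Figure D3:**
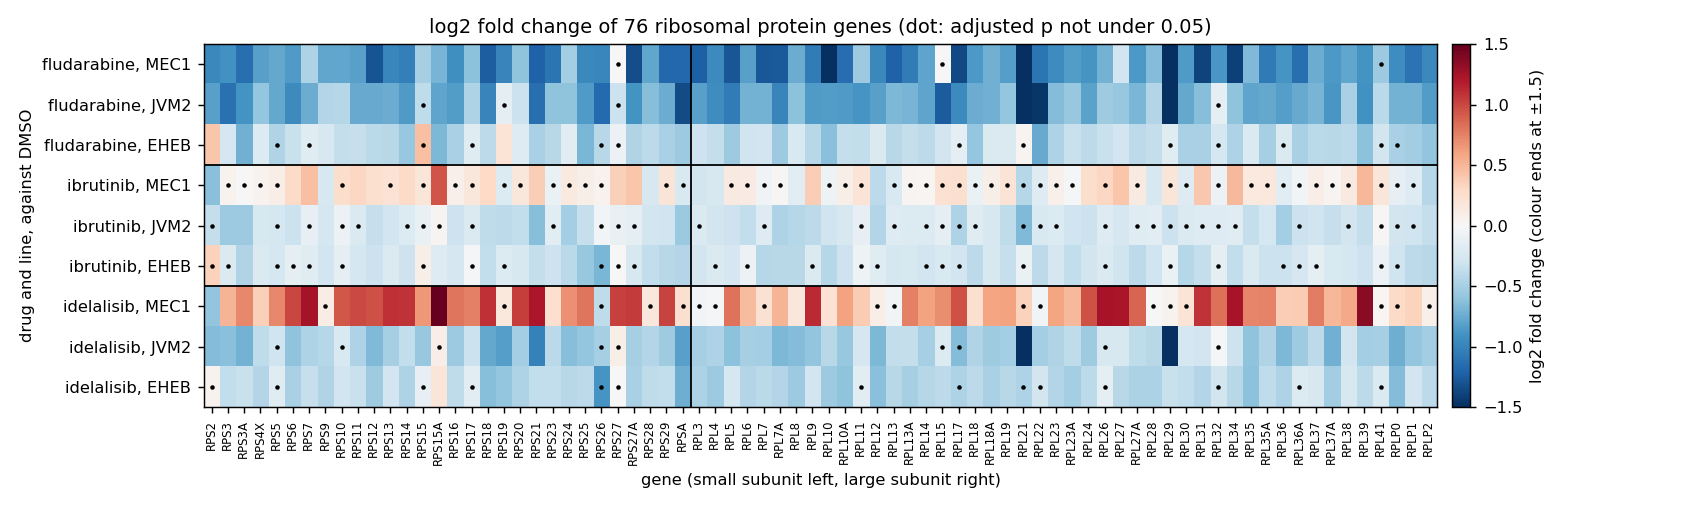
Log2 change against DMSO of 76 of the 77 genes (columns, small subunit at the left) in the 9 comparisons of a drug with DMSO (rows), in colours that end at ±1.5, with a dot where the adjusted p was not under 0.05. The idelalisib row of MEC1 is mostly of the rising colour, with 58 of all 77 genes higher and 1 lower, and the rows of JVM2 and EHEB are mostly of the falling colour.

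With the kinase inhibitors the genes fell in JVM2 and EHEB. Ibrutinib lowered 39 of the 77 genes in JVM2 and raised 0, with a median log2 change of −0.27, where 15.0% of all genes were lower and 14.5% higher. Idelalisib lowered 68 there and raised 0, with a median of −0.50 (22.6% of all genes lower, 21.6% higher). In EHEB ibrutinib lowered 48 and raised 0, with a median of −0.28 (11.2% of all genes lower, 8.5% higher), and idelalisib lowered 62 and raised 1, with a median of −0.41 (18.2% of all genes lower, 15.1% higher). The number lowered by ibrutinib in JVM2 rested on few libraries: 19 genes were called without the third ibrutinib library and 23 without the third DMSO library. Scaling by library size alone left 38 genes lower and 1 higher with ibrutinib in EHEB, with all genes raised by 0.101. The summed myeloid markers were at 16.8 to 18.4 CPM with ibrutinib and 36.1 to 39.8 CPM with idelalisib in JVM2, above DMSO, and at 21.7 to 24.7 and 23.6 to 27.9 CPM in EHEB. Mitochondrially encoded RNA took 0.679% to 0.828% of counts with ibrutinib and 0.886% to 1.02% with idelalisib in JVM2, and 1.67% to 2.31% and 1.45% to 2.05% in EHEB, and the part of both in the falls was not tested.

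RPS21, a small subunit protein, showed the largest fall with ibrutinib in JVM2. It was at 383, 385 and 378 CPM with DMSO, at 252, 240.1 and 244 CPM with ibrutinib and at 193, 196 and 179.7 CPM with idelalisib. The 3 groups did not overlap, and the log2 changes were −0.64 (SE 0.0614, adjusted p = 3.74e-05) and −1.01 (SE 0.0618, adjusted p = 4.04e-07). RPSA stood at 1305, 1242 and 1187 CPM with ibrutinib (−0.56 (SE 0.104, adjusted p = 0.00226)) and at 1125, 1071 and 927 CPM with idelalisib (−0.82 (SE 0.104, adjusted p = 9.18e-05)), all below the DMSO libraries given earlier. In EHEB RPSA was at 1589, 1288 and 1229 CPM with DMSO and at 894, 895 and 680.1 CPM with idelalisib, a change of −0.73 (SE 0.113, adjusted p = 0.000468). RPS25, a protein that some viral and cellular internal initiation sites need, was at 609.6, 768 and 769 CPM with DMSO and 481, 463 and 500.3 CPM with ibrutinib in EHEB, a change of −0.57 (SE 0.0951, adjusted p = 0.00173). These groups did not overlap. RPS6 was at 1425, 1406 and 1391 CPM with DMSO, 1254, 1199 and 1387 CPM with ibrutinib and 1034, 1029 and 956 CPM with idelalisib in EHEB, so that the change was −0.14 (SE 0.0556, adjusted p = 0.113), which did not pass, and −0.48 (SE 0.0557, adjusted p = 5.95e-05). The change of RPS6 with ibrutinib passed without the third ibrutinib library (−0.19, adjusted p = 0.0151).

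In MEC1 the kinase inhibitors gave another picture. Idelalisib raised 58 of the 77 genes and lowered 1, with a median log2 change of 0.60, where 27.6% of all genes were higher, 27.4% were lower and the median of all genes was 0.08. Ibrutinib raised 17 and lowered 9, with a median of 0.10 (23.7% of all genes higher and 23.9% lower), so the share called was below that of all genes. The balance with ibrutinib depended on the scaling, at 34 higher and 5 lower by library size alone and 31 higher and 3 lower among genes with a mean of at least 5 CPM, and without the second ibrutinib library only 15 genes were called in all. With idelalisib the number of genes by library size and by the stricter filter was 54 higher and 2 lower, and 66 higher and 1 lower. The small subunit rose by a median of 0.80 with idelalisib, with 25 of 31 genes higher, and the large subunit by 0.50, with 33 of 46 higher. The ratio of large to small subunit counts was 1.46 ± 0.0257 with DMSO and 1.29 ± 0.0353 with idelalisib (SD, n = 3 each). The summed myeloid markers were at 29.9 to 33.8 CPM with ibrutinib and 38.4 to 40.2 CPM with idelalisib, above those with DMSO. Mitochondrially encoded RNA took 0.682% to 0.862% and 0.913% to 0.958% of counts. The part of both in the changes was not tested.

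RPS15A, a small subunit protein encoded on chromosome 16 (chr16:18781295-18790383, minus strand, GRCh38), had the largest rise. It was at 491, 409 and 398 CPM with DMSO, at 754, 956 and 777 CPM with ibrutinib and at 1580.3, 1380.1 and 1735 CPM with idelalisib. These 3 groups were apart from each other, with log2 changes against DMSO of 0.94 (SE 0.113, adjusted p = 4.52e-05) and 1.85 (SE 0.116, adjusted p = 2.38e-07). In EHEB idelalisib raised RPS15A as well, by 0.19 (SE 0.0439, adjusted p = 0.00733), from 696, 650.2 and 681 to 778, 779 and 748 CPM, and it was the only one of the 77 genes that did so. With all 36 libraries in a joint fit that call was lost (adjusted p = 0.0887). RPL39 (chrX:119786504-119791630, minus strand) went in MEC1 from 746, 671 and 663 CPM with DMSO to 928, 1039 and 967 CPM with ibrutinib and 1857, 1539 and 1901 CPM with idelalisib. Its changes were 0.50 (SE 0.0834, adjusted p = 0.000507) and 1.35 (SE 0.0846, adjusted p = 2.46e-07), again without overlap. RPL34 was at 554, 657 and 593 CPM with ibrutinib and 1047, 899.5 and 1088 CPM with idelalisib, changes of 0.49 (SE 0.0856, adjusted p = 0.000714) and 1.24 (SE 0.0867, adjusted p = 5.19e-07).

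RPS6 was at 946, 869.5 and 926 CPM in the DMSO libraries of MEC1, at 1024, 1243 and 1088 CPM with ibrutinib and at 1874, 1601 and 2024 CPM with idelalisib. The idelalisib libraries were the highest, at a change of 1.00 (SE 0.0903, adjusted p = 3.25e-06). The rise of RPS6 with ibrutinib, 0.29 (SE 0.0895, adjusted p = 0.0196), was lost without the second DMSO library (0.25, adjusted p = 0.0681) or the second ibrutinib library (0.21, 0.082), and without the low-count filter (0.25, 0.0573). The same libraries decided the smaller rise of RPS21, which became 0.31 (adjusted p = 0.0576) and 0.26 (0.0635) without them. RPS14, lost in myelodysplasia with a deletion of the long arm of chromosome 5, rose with idelalisib from 934, 824 and 986 to 1994, 1700.1 and 2120.2 CPM, or 1.08 (SE 0.0958, adjusted p = 2.85e-06). RPS27A, made as a fusion with ubiquitin, was at 645, 569 and 714 CPM with DMSO, 804, 918 and 846 CPM with ibrutinib (0.41 (SE 0.11, adjusted p = 0.00909)) and 1506, 1115 and 1373 CPM with idelalisib (1.05 (SE 0.111, adjusted p = 1.09e-05)). RPS27, whose change with fludarabine had not passed the test, rose with idelalisib in MEC1 by 1.02 (SE 0.101, adjusted p = 6.53e-06). RPS2 was the only 1 of the 77 genes that idelalisib lowered in MEC1, and 1 of 9 that ibrutinib lowered there. Its pseudogenes carried 34.2% as many counts as the gene itself. RPS2 was at 2899, 2729.8 and 2994 CPM with DMSO, 1886, 1794 and 1895 CPM with ibrutinib and 1629.5, 1925 and 2168 CPM with idelalisib. It fell with both inhibitors, with changes of −0.63 (SE 0.0867, adjusted p = 0.000123) and −0.59 (SE 0.0867, adjusted p = 0.000139), and its groups did not overlap with DMSO.

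**Figure D4:**
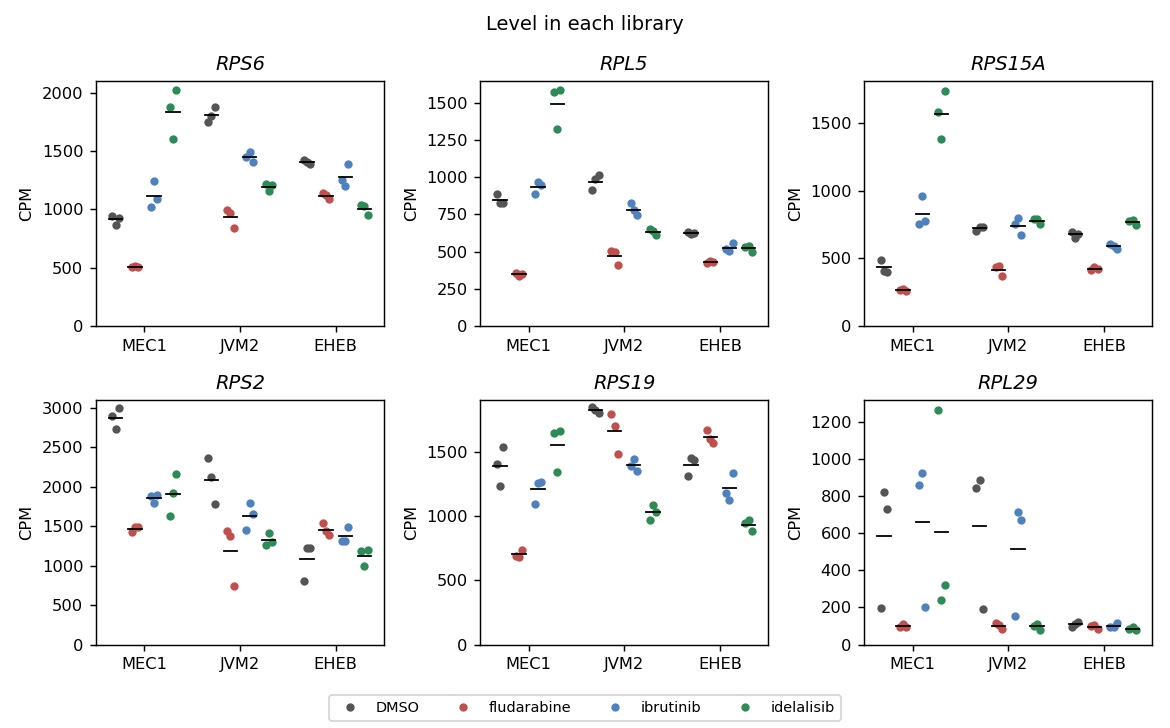
TMM-scaled CPM (vertical axis) of RPS6, RPL5, RPS15A, RPS2, RPS19 and RPL29 in each of the 36 libraries, grouped by line and treatment, with a line at the mean of 3 libraries. RPS15A reached 1580, 1380 and 1735 CPM in the idelalisib libraries of MEC1, RPS2 was lower there than with DMSO, and RPL29 took both high and low values within single groups of MEC1 and JVM2.

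Idelalisib could also be compared with ibrutinib inside 1 run of library numbers. In MEC1 63 of the 77 genes were higher with idelalisib than with ibrutinib and 0 were lower, with a median log2 difference of 0.53, where 6.01% of all genes were higher and 9.37% lower. In JVM2 19 were lower and 0 higher (median −0.21, 10.5% of all genes lower, 8.21% higher), and in EHEB 16 were lower and 1 higher (median −0.13, 9.09% of all genes lower, 6.77% higher). In MEC1 the difference was 0.92 (SE 0.113, adjusted p = 0.00106) for RPS15A, 0.85 (SE 0.0837, adjusted p = 0.000626) for RPL39 and 0.67 (SE 0.0716, adjusted p = 0.000768) for RPL5. RPS21 was lower with idelalisib than with ibrutinib in JVM2, at a difference of −0.37 (SE 0.0613, adjusted p = 0.00192), and RPS19 in JVM2 and EHEB, at −0.44 (SE 0.0672, adjusted p = 0.00117) and −0.38 (SE 0.0667, adjusted p = 0.00285). The counts in JVM2 and EHEB moved with single libraries. In JVM2 9 genes were called without the first ibrutinib library or without the third idelalisib library, 11 without the second idelalisib library and 34 without the third fludarabine library. In EHEB 7 were called without the third idelalisib library and 11 without the first idelalisib library.

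Whether a drug acted unequally in the lines was asked by an interaction of line with treatment, fitted to the 18 libraries of DMSO and that drug. It was called for 75 of the 77 genes with idelalisib (45.7% of all genes), the exceptions being RPS26 and RPL41, for 53 with fludarabine (39.1%) and for 36 with ibrutinib (33.6%). With idelalisib the smallest p values were those of RPS21 (adjusted p = 3.39e-09) and RPL24 (5.03e-09), a protein that bridges the subunits. RPL24 rose in MEC1 from 360.0, 332 and 338 to 677, 599 and 723 CPM (0.96 (SE 0.0738, adjusted p = 1.01e-06)). It fell in JVM2 from 661, 683 and 701 to 482, 477 and 451 CPM (−0.54 (SE 0.0693, adjusted p = 0.000101)) and in EHEB from 304, 309 and 304 to 245, 229 and 223 CPM (−0.40 (SE 0.0562, adjusted p = 0.000258)). With fludarabine they were those of RPS19 (adjusted p = 1.23e-06) and RPS12 (5.5e-06), the latter changing in MEC1 by −1.29, in JVM2 by −0.75 and in EHEB by −0.41. With ibrutinib they were those of RPS15A (adjusted p = 1.81e-05) and RPL34 (1.93e-05). RPS15A changed in MEC1 by 0.94 (4.52e-05), in JVM2 by 0.04 (0.787) and in EHEB by −0.20 (0.00942), and RPL34 in the same order by 0.49 (0.000714), −0.18 (0.119) and −0.37 (0.00152), where the adjusted p of the single line is in parentheses. The small fall of RPS15A in EHEB was lost by library size alone (−0.09, adjusted p = 0.243), in the joint fit (−0.19, 0.118) and in the fit of 6 libraries (−0.18, 0.0586). The change of RPL34 in JVM2 passed without the third fludarabine library (−0.16, adjusted p = 0.037).

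By role, the proteins of the 5S ribonucleoprotein that can bind MDM2 both fell with fludarabine in each line. RPL5 (chr1:92832013-92841924, plus strand) was at 888, 829 and 828 CPM with DMSO and 357, 338 and 348 CPM with fludarabine in MEC1, at 911, 988 and 1012 and 505, 498 and 407 CPM in JVM2, and at 633, 619.5 and 623 and 425, 433 and 428 CPM in EHEB. The groups were apart in each line, with changes of −1.29 (SE 0.0725, adjusted p = 2.7e-07), −1.05 (SE 0.0796, adjusted p = 1.33e-06) and −0.54 (SE 0.0471, adjusted p = 4.83e-06). With idelalisib RPL5 changed by 0.81 (SE 0.0717, adjusted p = 2.75e-06) in MEC1, −0.61 (SE 0.0791, adjusted p = 0.0001) in JVM2 and −0.26 (SE 0.047, adjusted p = 0.00142) in EHEB. RPL11 changed less, by −0.55 (0.000274), −0.88 (1.25e-05) and −0.37 (0.00328) with fludarabine in MEC1, JVM2 and EHEB, and by 0.38 (0.00229) with idelalisib in MEC1 (adjusted p in parentheses).

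The stalk proteins RPLP0, RPLP1 and RPLP2, which recruit the translation factors, were all lower with fludarabine in MEC1 (median −0.97) and JVM2 (−0.71). RPLP1 was at 1229, 1144 and 1368 CPM with DMSO and 559, 635 and 544 CPM with fludarabine in MEC1 (−1.11 (SE 0.0891, adjusted p = 2.81e-06)). With idelalisib 1 of the 3 rose in MEC1, RPLP1, by 0.34 (SE 0.0881, adjusted p = 0.00709), and the median of the 3 was 0.29, beside 0.60 over all 77 genes. RPLP0 passed there without the first fludarabine library (0.29, adjusted p = 0.0467) or the third (0.29, 0.0197). It also passed among genes with a mean of at least 5 CPM (0.41, 0.0201) and in the fit of 6 libraries (0.29, 0.0151). RPLP2 was lower with ibrutinib in MEC1 (−0.43 (SE 0.137, adjusted p = 0.0236)), a call lost without the first DMSO library (−0.31, adjusted p = 0.0989) and without the first ibrutinib library (0.0538), the second (0.0518) or the third (0.0533), and among genes with a mean of at least 5 CPM (−0.35, 0.0539). RPLP2, RPS9, RPS28 and RPL8 were lower in 8 of the 9 comparisons with DMSO, which share their DMSO libraries within a line, and RPSA was 1 of 30 genes lower in 7. RPS28 was at 402, 454 and 461 CPM with DMSO, 297, 293 and 254 CPM with fludarabine (−0.64 (SE 0.0752, adjusted p = 3.77e-05)) and 329, 336 and 304 CPM with idelalisib (−0.44 (SE 0.0751, adjusted p = 0.000667)) in JVM2. RPL8, which reaches towards the catalytic centre, was at 847, 832 and 870.0 CPM with DMSO and 567, 597 and 581 CPM with idelalisib in EHEB (−0.55 (SE 0.0529, adjusted p = 1.6e-05)), and RPS9 changed there by −0.46 (SE 0.0631, adjusted p = 0.000227).

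Of the 19 genes listed as mutated in Diamond-Blackfan anaemia, an inherited failure of red cell production, 17 fell with fludarabine in MEC1 (median −0.71), 17 in JVM2 (−0.74) and 14 in EHEB, where RPS19 rose (−0.36). Of the 77 genes as a whole 74, 73 and 62 fell in these lines. Of all genes tested, 22.7%, 23.3% and 19.2% were lower. With idelalisib 16 of the 19 rose in MEC1 (median 0.76), whereas 13 fell in JVM2 and 13 in EHEB. Beside them stood 58, 68 and 62 of the 77 genes, and 27.6%, 22.6% and 18.2% of all genes tested. RPS7, from this list, was at 605, 688 and 520.2 CPM with DMSO and 1502, 1234 and 1564 CPM with idelalisib in MEC1 (1.25 (SE 0.146, adjusted p = 2.53e-05)). RPL27 was at 233.5, 203 and 197 and 506, 433 and 544 CPM (1.23 (SE 0.103, adjusted p = 1.86e-06)). Of the 6 genes mutated or lost in leukaemias (RPS14, RPS15, RPL5, RPL10, RPL11 and RPL22), 6 fell with fludarabine in MEC1 (median −1.06), 5 in JVM2 (−0.87) and 5 in EHEB (−0.55). The counts of the 77 genes and the shares of all genes given for fludarabine stand beside these 6 genes too. RPS15, which is mutated in a part of chronic lymphocytic leukaemias, was among the lowest and most scattered, at 170.5, 215 and 140.5 CPM with DMSO, 125, 137 and 110.1 CPM with fludarabine and 232.9, 325 and 268 CPM with idelalisib in MEC1. It rose with idelalisib (0.65 (SE 0.172, adjusted p = 0.00745)), though not in the joint fit (0.59, adjusted p = 0.0943). Its fall with fludarabine (−0.50 (SE 0.172, adjusted p = 0.0351)) was lost without the first DMSO library (−0.52, adjusted p = 0.0614) or the second (−0.33, 0.144) and without the first fludarabine library (−0.51, 0.075) or the third (−0.43, 0.113), by library size alone (−0.25, 0.287), among genes with a mean of at least 5 CPM (−0.40, 0.0723) and in the joint fit (−0.47, 0.21). In EHEB the fludarabine libraries of RPS15 read 147, 297 and 80.4 CPM, and no change passed the test in that line.

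RPL29 (chromosome 3, minus strand), a large subunit protein, had the largest fitted falls, and its libraries took high and low values inside single groups. In MEC1 it was at 197, 822 and 733 CPM with DMSO, 95.4, 109 and 94.1 CPM with fludarabine, 862, 925 and 201 CPM with ibrutinib and 1261, 240.01 and 319 CPM with idelalisib. In JVM2 the values were 843, 886 and 194, 118, 104 and 82.5, 152, 714 and 672 and 101, 113 and 80.7 CPM in the same order. In EHEB all 12 libraries lay between 79.4 and 119 CPM. The fludarabine libraries of MEC1 and JVM2 and the idelalisib libraries of JVM2 all lay between 80.7 and 118 CPM. In each other group of these lines 1 or 2 libraries lay between 152 and 319.5 CPM and the rest between 672 and 1261 CPM. The log2 changes were −2.55 (SE 0.743, adjusted p = 0.0161) in MEC1, lost without the first fludarabine library (adjusted p = 0.0509) or the third (0.0514), and in JVM2 −2.66 (SE 0.613, adjusted p = 0.00422) with fludarabine and −2.71 (SE 0.615, adjusted p = 0.00424) with idelalisib.

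RPL21, a large subunit protein, read 391, 331 and 337 CPM with DMSO and 99.2, 84.9 and 95.3 CPM with fludarabine in MEC1 (−1.92 (SE 0.338, adjusted p = 0.00079)), and 250.3, 389.8 and 416 and 68.7, 130.4 and 98.3 CPM in JVM2 (−1.83 (SE 0.31, adjusted p = 0.000573)). Its pseudogenes carried 182.5% as many counts as the gene itself, the highest such share among the 77 genes, so its level is uncertain. RPL7 (39.7%) and RPS2 (34.2%) came after RPS26. RPL41 read 547, 265 and 332 CPM in the DMSO libraries of MEC1 and RPL17 read 69.6, 155 and 162 CPM in those of JVM2, so both varied widely inside 1 group. RPS26 read 481, 295 and 619 CPM with DMSO in JVM2 and 227, 216 and 176 CPM with fludarabine (−1.17 (SE 0.279, adjusted p = 0.00516)).

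Features of the genes that the rule did not use, hosting of small RNAs and the promoter motif, are given as counts and medians. In 28 of the 77 genes an intron holds a small nucleolar RNA, 59 in all. With fludarabine in MEC1 28 of these 28 genes fell (median −0.97), against 46 of the 49 others (−0.86). With idelalisib 19 of the 28 rose and 1 fell (0.59), against 39 of 49 risen (0.65). Of the genes with the pyrimidine motif and those without it, 36 of 38 and 23 of 24 fell with fludarabine in MEC1 (medians −0.96 and −0.91), and 28 of 38 and 18 of 24 rose with idelalisib (0.64 and 0.60). Across the 77 genes, the share of G and C in the coding sequence was related to the changes of the kinase inhibitors in MEC1, with a Spearman correlation of −0.350 for ibrutinib, −0.390 for idelalisib and −0.347 for idelalisib against ibrutinib. Over 13399 coding genes tested the values were −0.248, −0.301 and −0.206. In JVM2 the correlation over the 77 genes was 0.0681 for ibrutinib and −0.0497 for idelalisib, and in EHEB 0.0202 and −0.166. For idelalisib against ibrutinib it was −0.141 in JVM2 and −0.248 in EHEB. For fludarabine it was 0.178 in MEC1, 0.132 in JVM2 and 0.173 in EHEB. The genes share the same libraries and depth, and the part of base composition in the rises was not tested.

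**Figure D5:**
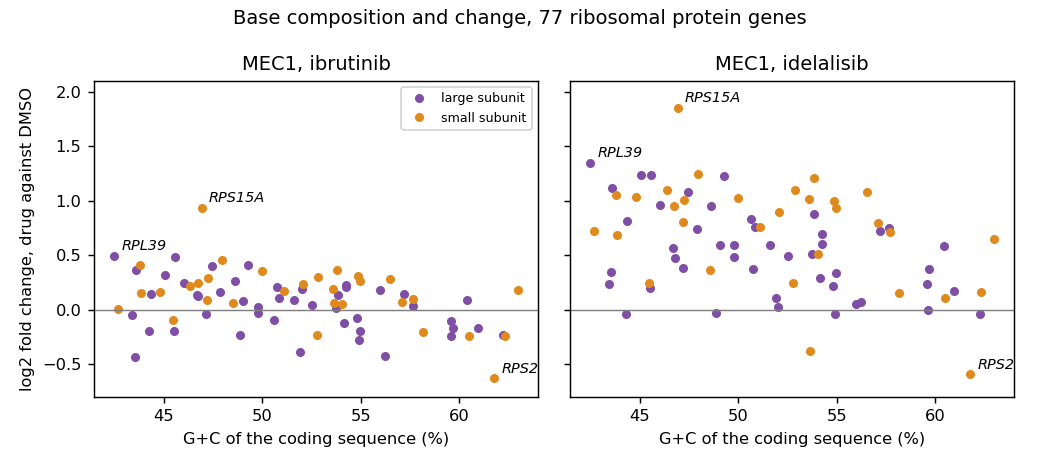
Log2 change against DMSO (vertical axis) of the 77 genes plotted against the share of G and C in their coding sequence (%, horizontal axis), for ibrutinib and idelalisib in MEC1, 1 point per gene, with RPS15A, RPL39 and RPS2 named. RPS15A and RPL39 lie highest, at 1.85 and 1.35 with idelalisib, and RPS2 lies lowest, and the Spearman correlations are −0.350 and −0.390.

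Across the 77 genes, which are not independent of each other, the changes of 1 drug in different lines, which share no library, were compared as a description. For fludarabine Pearson's r was 0.619 between MEC1 and JVM2, 0.185 between MEC1 and EHEB and 0.165 between JVM2 and EHEB. For idelalisib the values were 0.266, 0.251 and 0.261, and for ibrutinib 0.313, 7.7e-05 and 0.112. Pearson's r for fludarabine in MEC1 and JVM2 rested in part on RPL29 and RPL21, the lowest genes in both. Without them r was 0.325 over 75 genes, and it was 0.395 between MEC1 and EHEB and 0.458 between JVM2 and EHEB. Without them r between JVM2 and EHEB was 0.490 for idelalisib and 0.175 for ibrutinib, and between MEC1 and EHEB it was 0.0270 for ibrutinib. By rank over all 77 genes, Spearman's correlation for fludarabine was 0.492 between MEC1 and JVM2. It was 0.410 between MEC1 and EHEB and 0.359 between JVM2 and EHEB. No test was made on these values.

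Other genes, mostly of the translation machinery, were described from lists of pathway genes. Some ribosomal proteins carry other symbols. FAU, the precursor of a small subunit protein, changed by −0.76 (2.93e-05) with fludarabine and 0.67 (4.88e-05) with idelalisib in MEC1 and by −0.53 (0.000152) and −0.45 (0.000541) in JVM2, adjusted p in parentheses. RACK1, a signalling scaffold on the small subunit, changed by −0.91 (3.3e-05) with fludarabine in MEC1 and by −0.71 (0.000118) in JVM2. A list of 17 other genes whose transcripts carry a 5′TOP tract held mostly translation factors. With fludarabine 15 of the 17 fell and 0 rose in MEC1 (median −0.78), 15 fell in JVM2 (−0.71) and 13 in EHEB (−0.33). Of all genes, 22.7%, 23.3% and 19.2% were lower in these lines. With idelalisib in MEC1, where most ribosomal protein genes rose, 7 of these 17 rose and 8 fell (median −0.23), beside 27.6% of all genes higher and 27.4% lower. PABPC1, the poly(A)-binding protein, fell there from 1516, 1762 and 1674 to 928, 919.8 and 1025 CPM, a change of −0.79 (SE 0.0707, adjusted p = 3.27e-06). EIF3A, an initiation factor subunit, fell from 409, 416 and 419 to 155, 173 and 176 CPM (−1.30 (SE 0.0755, adjusted p = 1.51e-07)).

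Of 13 genes of translation control, 8 fell and 0 rose with idelalisib in MEC1 (61.5% lower, beside 27.4% of all genes; median −0.31). EIF4EBP1, the repressor of cap-dependent initiation that mTOR holds off, was at 50.7, 45.3 and 53.4 CPM with DMSO, 17.3, 15.0 and 16.6 CPM with ibrutinib and 18.2, 17.6 and 18.5 CPM with idelalisib. Its changes were −1.61 (SE 0.0802, adjusted p = 9.41e-08) and −1.46 (SE 0.08, adjusted p = 1.04e-07). LARP1, which binds the 5′TOP tract, changed there by −0.74 (SE 0.0695, adjusted p = 7.06e-06) and −1.16 (SE 0.07, adjusted p = 1.94e-07). The genes of this list did not share 1 direction over the 9 comparisons of a drug with DMSO. EIF4EBP1 and LARP1 were each lower in 7 and higher in 0, whereas TSC2 was higher in 7 and lower in 1. By library size alone LARP1 lost its falls with fludarabine in MEC1 (−0.09, adjusted p = 0.343) and JVM2 (−0.005, 0.944). Its fall with idelalisib in EHEB was lost too (−0.03, 0.640). The same scaling made LARP1 higher with fludarabine in EHEB (0.18, adjusted p = 0.00375). The rise of TSC2 with fludarabine in EHEB was lost in the joint fit (0.14, adjusted p = 0.148). Of 22 ribosome assembly genes, 4 rose and 7 fell with fludarabine, 10 and 5 with ibrutinib and 5 and 9 with idelalisib in MEC1. As shares, 18.2% rose and 31.8% fell with fludarabine, beside 21.2% and 22.7% of all genes, and 22.7% rose and 40.9% fell with idelalisib, beside 27.6% and 27.4%. With ibrutinib 45.5% rose and 22.7% fell, beside 23.7% and 23.9%. NPM1, a nucleolar chaperone, fell with fludarabine from 1115, 1055 and 1122 to 446, 407 and 416 CPM in MEC1 (−1.38 (SE 0.0626, adjusted p = 8.59e-08)) and from 1201, 1260.2 and 1374 to 599, 581 and 468 CPM in JVM2 (−1.22 (SE 0.0893, adjusted p = 9.89e-07)). FBL, the methyltransferase of box C/D particles, changed with idelalisib by −1.14 (9.56e-07) in MEC1, −0.82 (4.3e-05) in JVM2 and −0.61 (0.000208) in EHEB.

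Of the 78 mitochondrial ribosomal protein genes, which serve translation inside mitochondria, 26 were lower and 4 higher with fludarabine in MEC1 (median −0.16, beside −0.92 for the cytosolic genes) and 27 lower and 10 higher in JVM2 (−0.11, beside −0.76). In EHEB 13 were higher and 3 lower with fludarabine (0.13, beside −0.40), and the 16.7% higher was near the 18.4% of all genes. The share lower was 33.3% in MEC1, 34.6% in JVM2 and 3.85% in EHEB, where it was 22.7%, 23.3% and 19.2% of all genes. With idelalisib 39 were higher and 10 lower in MEC1 (0.28), 35 lower and 3 higher in JVM2 (−0.29) and 17 lower and 2 higher in EHEB (−0.20). These were 50.0% higher in MEC1, 44.9% lower in JVM2 and 21.8% lower in EHEB, beside 27.6%, 22.6% and 18.2% of all genes. Of the processed pseudogenes of the 77 genes that passed the filter, 120 of 321 fell and 9 rose with fludarabine in MEC1, and with idelalisib 44.5% of the 321 rose and 10 fell there (median 0.77). Of all genes tested in MEC1, 22.7% were lower and 21.2% higher with fludarabine, and 27.6% were higher and 27.4% lower with idelalisib. Reads shared with the parent genes can enter the pseudogene counts.

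Among the paralogs, RPS27L, a known target of p53 that resembles RPS27, did not follow the set with fludarabine. With fludarabine it was at 20.8, 23.7 and 24.8 CPM in MEC1, where DMSO gave 22.4, 20.6 and 20.6 CPM (0.13 (SE 0.108, adjusted p = 0.374)). In JVM2 it rose from 71.0, 84.4 and 56.6 to 157, 153 and 154 CPM (1.13 (SE 0.139, adjusted p = 5.21e-05)), and in EHEB from 83.5, 78.3 and 83.3 to 148, 176 and 175 CPM (1.02 (SE 0.066, adjusted p = 5.12e-07)). All treated libraries of JVM2 and EHEB were above their DMSO libraries, those of MEC1 overlapped with DMSO, and the interaction between line and fludarabine had an adjusted p of 0.000305. By library size alone, which raised the median of all genes by 0.249, the change in MEC1 was 0.38 (adjusted p = 0.00762). With idelalisib RPS27L rose in MEC1 by 1.31 (SE 0.109, adjusted p = 1.83e-06). RPL39L, a paralog of RPL39 with a restricted expression, fell with idelalisib in each line, with changes of −0.39 (adjusted p = 0.00759) in MEC1, −1.57 (7.54e-06) in JVM2 and −0.93 (0.00175) in EHEB, whereas RPL39 had risen in MEC1.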

How the data were processed

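RNA sequencing of rRNA-depleted total RNA gave 36 libraries, 3 in each of 12 groups of cell line and treatment taken from the labels, where the number of a library is its label. The authors trimmed reads with Trimmomatic, aligned them to GRCh38 (hg38) with HISAT2 2.1, assembled and quantified them with StringTie 1.3.4 and deposited the estimated counts per gene symbol as whole numbers, and edgeR 3.22.5 is also listed in the submitters' processing notes. The annotation release, the strand setting and the read length are not stated in the labels or the methods, so the counts of overlapping, antisense and near-identical genes are uncertain. StringTie can assign reads shared with processed pseudogenes to either gene. Libraries of lower doses that the methods mention were not analysed here. Library totals were 26590705 to 53538925 counts, and 1 entry without a symbol (0.00384% of counts) was left out.

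Counts were tested with edgeR 4.0.16 (R 4.3.3) by the quasi-likelihood F-test with TMM scaling, after filterByExpr, so that 17516 (MEC1), 17508 (JVM2) and 17748 (EHEB) genes were tested. Each line was fitted with its 12 libraries, the lines were compared over the 9 DMSO libraries, and interactions were fitted over 18 libraries per drug. P values were adjusted by Benjamini-Hochberg over all genes tested, with a threshold of 0.05, and the procedure was tested on simulated data. The members and the gene lists were chosen with earlier results of these data known, so no p value was adjusted over a list alone. The alternatives tried were limma-voom with limma 3.58.1, DESeq2 1.42.0, no TMM, DESeq2 size factors in edgeR, no filter, a mean of at least 5 CPM, counts with pseudogenes added, fits of 6 or of 36 libraries, and leaving out each library. Tables used pandas 2.3.3 under Python 3.11.15, and figures used matplotlib 3.10.9. Gene positions and coding sequence came from GENCODE 44 and promoters from RefSeq, both on GRCh38.

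The genes named were those with a role in the lists, in each comparison of a drug with DMSO the 2 called members with the largest change in each direction, at most 5 members called in the same direction in the most of the 9 comparisons, the 3 highest and 3 lowest per coding length with DMSO, the 2 smallest interaction p values per drug, the 2 largest differences per pair of lines and at most 3 genes of each other list. RPS27 and RPL15 were added after their values were seen. The values of 2 genes that these rules select are not reported here.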

Additional observations from a re-analysis of the deposited data

Results flagged for a closer look

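The results listed here are drug effects that differed between the lines by the interaction test of edgeR over 18 libraries. Line, p53 status and exposure time cannot be told apart in them, and for ibrutinib and idelalisib neither can the run of library numbers. The interaction was called for 53 of the 77 genes with fludarabine (39.1% of all genes), 36 with ibrutinib (33.6%) and 75 with idelalisib (45.7%). With fludarabine, RPS19 (adjusted p = 1.23e-06) fell in MEC1, did not pass in JVM2 with all libraries and was higher in EHEB, while RPS12 (5.5e-06) had log2 changes of −1.29, −0.75 and −0.41 in these lines. The call of RPS19 in EHEB was lost without most of its single libraries, without the low-count filter and in the joint fit. With ibrutinib, RPS15A (adjusted p = 1.81e-05) and RPL34 (1.93e-05) rose in MEC1 and fell in EHEB, and neither passed in JVM2 with all libraries. The fall of RPS15A in EHEB was lost by library size alone, in the joint fit and in the fit of the libraries compared. With idelalisib, RPS21 (adjusted p = 3.39e-09) and RPL24 (5.03e-09) rose in MEC1 and fell in JVM2 and EHEB. The paralog RPS27L (adjusted p = 0.000305) rose with fludarabine in JVM2 and EHEB, where p53 is wild type, and did not pass in MEC1.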

How the results depend on the processing

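No change of a named gene past the threshold turned its direction under the alternatives run. The interaction test has no direction, and over 25 alternatives for each drug it called 46 to 59 genes with fludarabine, 30 to 47 with ibrutinib and 70 to 76 with idelalisib, with the adjusted p of the 7 genes named for it at most 0.00135. No paired analysis was possible because the groups share no replicate number in the labels. Among the counts of called genes, that of JVM2 for idelalisib against ibrutinib, 19, became 29 with DESeq2 and 29 in the fit of 6 libraries, and that of EHEB, 17, became 7 in the fit of 6 libraries. Leaving out 1 library at a time gave 15 to 30 called genes for ibrutinib in MEC1 (26 with all libraries), 19 to 47 for ibrutinib in JVM2 (39), and for idelalisib against ibrutinib 9 to 34 in JVM2 and 7 to 21 in EHEB. The other counts stayed within 1.5 times their value, among them 70 to 74 for fludarabine in MEC1, 70 to 73 in JVM2, 53 to 65 in EHEB and 55 to 61 for idelalisib in MEC1. Of the tests of single named genes with a library left out, 338 lost and 53 gained a call and 5603 kept their side of the threshold, and under the other alternatives 128 lost, 77 gained and 4304 kept it. Scaling by library size alone moved the median of all genes by 0.249 in MEC1 and 0.199 in JVM2 with fludarabine, by 0.101 with idelalisib in JVM2 and by −0.169 for idelalisib against ibrutinib in MEC1. The cause of these shifts was not tested.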
